A study of Mus musculus with 8 samples.

Results

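The anterior pituitary is the gland that hangs below the hypothalamus and secretes growth hormone, prolactin and the glycoprotein hormones into the blood. Its hormone transcripts are made by specialised endocrine cells outside the brain, and the hypothalamus governs those cells through releasing and inhibiting factors carried in the portal blood. A dissected hypothalamus holds the neurons that make these factors, and at its base the median eminence and pituitary stalk, along which the pars tuberalis of the pituitary lies. The genes described here are 8 of this gland: the growth hormone gene Gh, the prolactin gene Prl, the common glycoprotein hormone alpha subunit Cga, the luteinising hormone beta subunit Lhb, the thyrotropin beta subunit Tshb, the pituitary homeobox gene Pitx1, the growth hormone releasing hormone receptor Ghrhr and Tbx19, a factor of the cells that make Pomc. They were chosen by name, with their levels in these arrays already known, as genes with a probe annotated to exactly 1 symbol. Each of the 8 had 1 such probe, out of 13840 genes measured in this way and 33012 probes in all. The levels that led to the choice are therefore given as a description, with no test.

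The study compared male C57BL/6J mice, called B6 here, with male homozygous B6.CAST-17 congenic mice, a strain used to look for genes behind a nutrient intake locus on chromosome 17. Hypothalamus and liver came from mice fed LabDiet chow or from mice that for 24 h could pick from 78% carbohydrate with 22% protein or 78% fat with 22% protein, called 2-choice here. RNA of 6 mice was pooled for every sample and read on 1 single-channel array, 8 in all, so no combination of tissue, strain and diet was repeated, and a pool does not show how many of its mice carried a signal. The mice had the most divergent nutrient intakes of 20 to 25 per strain in a 10-day self-selection trial and spent 6 weeks back on chow before the day of choice. On day 2 of that choice tissue was collected, 4 h ahead of the dark phase, and the age of the mice is not stated in the labels.

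Levels below are log2 intensities after quantile normalization over the 4 arrays of a tissue. The filter level, the 40th percentile of the mean level in that tissue, was 9.26 in hypothalamus and 9.04 in liver, and the mean hypothalamus levels of Gh, Prl, Cga, Lhb and Tshb lay above it, while those of Pitx1, Ghrhr and Tbx19 lay below. The authors had brought the 2 strains of each tissue and diet to 1 distribution, with a median intensity of 560 in the hypothalamus chow arrays and 1338 in the hypothalamus 2-choice arrays. Diet and this scaling set cannot be told apart, whereas each strain comparison lies inside 1 set. The chow hypothalamus pair stood apart, with 32.6% of all 33012 probes at least 2-fold apart between strains against 9.7% in the 2-choice pair. The free-text descriptions of all 4 liver samples name hypothalamus, and those of some name another strain or diet than the title, so groups follow the titles. The description of the congenic chow hypothalamus sample names C57BL/6J, and Decr2, a chromosome 17 gene, was 1.38 log2 units higher in the congenic pool in that pair but -3.26, -2.63 and -2.32 in the hypothalamus 2-choice, liver chow and liver 2-choice pairs. The strain of the chow hypothalamus arrays is therefore given as labelled. Of 6 measured hypothalamic markers, the 5 past the filter, among them the orexin gene Hcrt, were higher in hypothalamus than in liver, and all 9 hepatocyte markers were higher in liver (limma, 4 matched pairs, Benjamini-Hochberg over 19807 probes, of which 49.1% were called, 25% higher in hypothalamus and 24.1% lower).

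The promoters of Prl and Cga are shown because these genes, made by different cells of the gland, share the pattern of levels described next. The windows are the 250 bases before the start in the RefSeq table for GRCm38.p6, chr13:27057320-27057569 for Prl and chr4:34893529-34893778 for Cga, both on the plus strand and written from 5′ to 3′. Capitals mark matches, on either strand, to motifs picked with the levels known. They are TATNCAT, the core bound by the pituitary factor POU1F1, then TAATC, the core of bicoid-type homeodomain proteins such as PITX1, then AAGGTCA, a site of the gonadotrope factor NR5A1, and last TATAAA, the TATA box.
Prl: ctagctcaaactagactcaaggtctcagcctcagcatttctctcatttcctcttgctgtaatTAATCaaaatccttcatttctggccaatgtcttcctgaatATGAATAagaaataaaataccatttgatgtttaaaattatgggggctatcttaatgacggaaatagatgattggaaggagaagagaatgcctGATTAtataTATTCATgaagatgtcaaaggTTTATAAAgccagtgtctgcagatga
Cga: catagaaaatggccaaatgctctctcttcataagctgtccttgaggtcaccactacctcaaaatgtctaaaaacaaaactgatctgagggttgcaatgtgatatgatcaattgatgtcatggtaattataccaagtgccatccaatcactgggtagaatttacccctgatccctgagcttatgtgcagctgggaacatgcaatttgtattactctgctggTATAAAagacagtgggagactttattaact
The Prl window held 2 matches to TATNCAT, from 148 to 142 and from 47 to 41 bases before the start, and 2 to TAATC. It also held TATAAA from 24 to 19 bases before the start, with an overlapping match to it on the minus strand from 26 to 21. Of 32851 windows of this length in the table, 7.92% held TATNCAT, 19.8% TAATC, 4.08% AAGGTCA and 12.4% TATAAA. The Cga window held TATAAA 30 bases before the start and none of the other 3. The Lhb window held 1 match to TAATC with 1 to AAGGTCA and with 1 to TATAAA, that of Tshb 3 to TATAAA alone, a pair of them overlapping, and that of Tbx19 1 to TAATC alone. The table had windows for 5 of the 8 genes. A match is a description of letters, not of a bound site.

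Among the hormones, Gh, Prl and Cga shared 1 pattern: high in both 2-choice hypothalamus pools and low in the chow hypothalamus pools and in all livers. Gh, the growth hormone of somatotropes (probe 703036), was at 14.31 in the B6 and 12.24 in the congenic 2-choice hypothalamus, against 8.28 and 8.74 in the B6 and congenic chow hypothalamus. Its liver levels were 8.36 and 8.16 on chow and 8.54 and 9.16 on 2-choice, for B6 and congenic. The 2-choice hypothalamus levels thus lay apart from all 6 other arrays, by 3.08 log2 units between the nearest values, and all 6 were under the filter levels of their tissue other than the congenic 2-choice liver. In the deposited intensity, Gh was 43350 in the B6 and 10710 in the congenic 2-choice pool, and 272 and 360 in the chow pools.

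Prl, the prolactin of lactotropes (probe 922742), was at 13.02 in the B6 and 11.08 in the congenic 2-choice hypothalamus. On chow it was at 9.22 and 8.62 in B6 and congenic hypothalamus, and the livers spanned 8.33 to 8.67. The groups did not overlap, with 1.86 log2 units between the nearest values. Cga, the alpha subunit that luteinising hormone, follicle-stimulating hormone and thyrotropin share (probe 414508), was at 13.12 and 12.63 in the B6 and congenic 2-choice hypothalamus. It was at 8.61 and 9.28 on chow and at 7.62 to 8.48 in the livers, with 3.35 log2 units between the nearest values. The levels of Cga were closer between the 2-choice pools than those of Gh or Prl. Cga was also the only member higher in both chow hypothalamus pools than in all 4 livers, which held for 22.7% of all probes and 32.6% of those past the filter. On the deposited scale its B6 chow level was not (-0.04 from the highest liver).

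**Figure D1:**
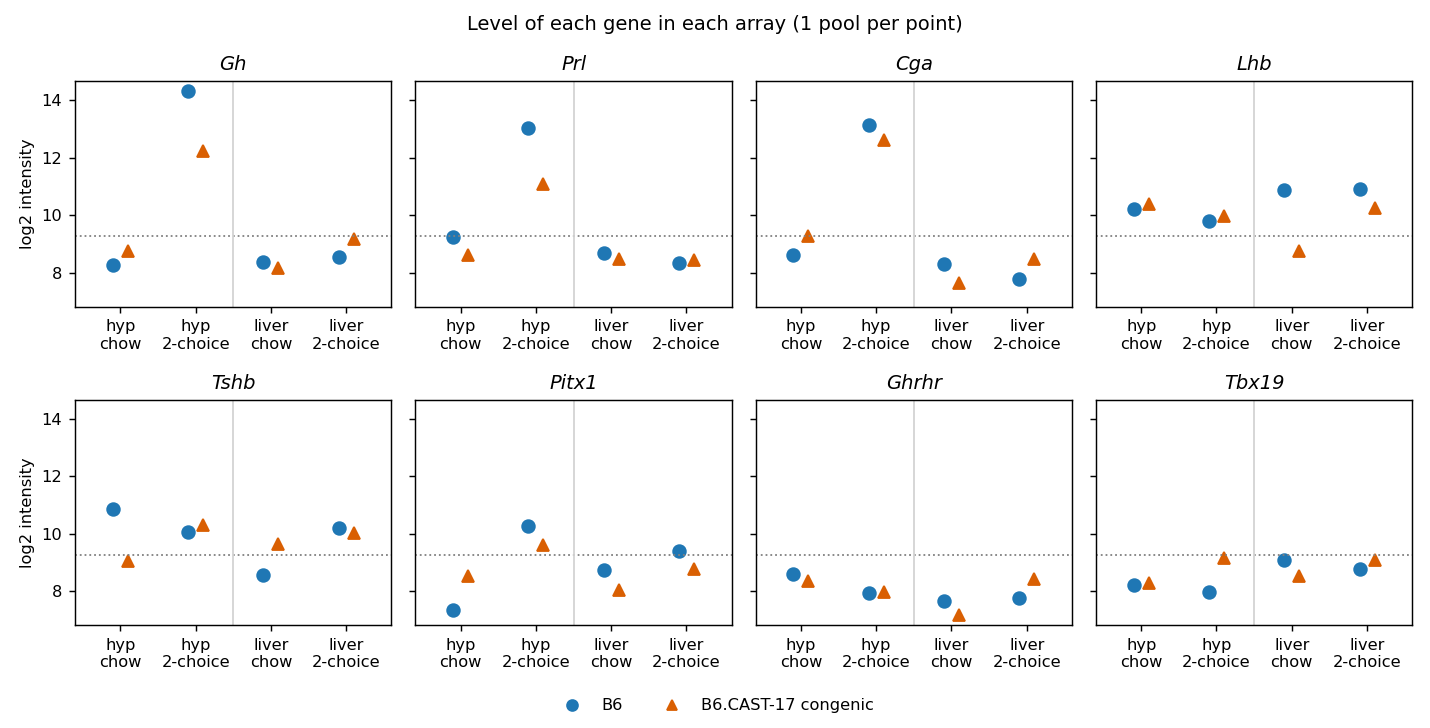
Log2 intensity of each of the 8 genes (panels) in the 4 hypothalamus (hyp) and 4 liver arrays, 1 point per pool, with B6 as circles and congenic as triangles. The dotted line is the hypothalamus filter level of 9.26. Gh, Prl and Cga stand at 11.08 to 14.31 in the 2-choice hypothalamus and at 9.28 or lower elsewhere, while the other genes stay at 10.92 or lower in every array.

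The gap between the lower 2-choice hypothalamus level and the highest of the other 6 arrays was computed for every probe to place these values. Cga had the largest gap of the 33012 probes and Gh the next, at rank 2, while Prl was at rank 25. These 3 of the 8 were at least 2-fold above all 6 other arrays in both pools, as were 0.857% of all probes; over the 19807 probes past the hypothalamus filter it was 1.28%. The members were named from these levels, so nothing is read from the ranks or the share. Ranks within an array need no scaling between arrays: Gh stood at the 92.3 and 78.6 percentile of probes in the B6 and congenic 2-choice hypothalamus and at the 11.9 and 26.6 percentile on chow. Cga stood at 85.4 and 81.7 against 22.4 and 41.1, and Prl at 84.7 and 67.5 against 39.7 and 22.7. In pooled tissue, more cells of a type and more RNA per cell cannot be told apart.

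The other hormone subunits did not share this pattern. Lhb, the beta subunit of luteinising hormone (probe 789191), was at 10.21 and 10.40 in the B6 and congenic chow hypothalamus and at 9.78 and 9.96 on 2-choice. Its livers spanned 8.74 to 10.92, so the hypothalamus levels lay inside the liver range. Tshb, the beta subunit of thyrotropin (probe 878281), was at 10.87 and 9.06 on chow and at 10.06 and 10.29 on 2-choice, with 8.55 to 10.20 in liver. Its highest level was in the B6 chow pool and its groups overlapped. Fshb, the follicle-stimulating hormone subunit, had no probe with a single symbol.

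Of the pituitary regulators, Pitx1, a homeobox factor of most anterior pituitary cells (probe 883195), was also higher in both 2-choice hypothalamus pools than elsewhere, by less. It was at 10.28 and 9.61 in the B6 and congenic 2-choice hypothalamus, at 7.33 and 8.51 on chow and at 8.03 to 9.41 in liver. Its nearest values were 0.20 log2 units apart, and with all 8 arrays quantile normalized together its congenic 2-choice level was 0.09 below the highest liver. Counting Pitx1, 4 of 8 members were higher in both 2-choice hypothalamus pools than in all 6 other arrays, as were 10.6% of all probes and 15% of those past the filter. Ghrhr, the receptor through which hypothalamic growth hormone releasing hormone acts on somatotropes (probe 672523), was at 8.60 and 8.35 on chow and at 7.93 and 7.98 on 2-choice, all under the filter level. Tbx19, a factor of corticotropes and melanotropes (probe 454707), was at 8.20, 8.29 and 7.95 in the B6 chow, congenic chow and B6 2-choice pools and at 9.15 in the congenic 2-choice pool, against 8.53 to 9.08 in liver. No level of these regulators but those of Pitx1 on 2-choice passed the filter level in hypothalamus.

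The label of the set was thus met in part: among the 5 hormone genes, Gh, Prl and Cga stood above liver in the 2-choice hypothalamus, while Lhb and Tshb overlapped with liver. In the chow hypothalamus Gh, Prl, Lhb and Tshb overlapped with liver. Leaving out the chow hypothalamus pair, whose strain labels are in doubt, the count above liver was 4 of 8 (25.9% of all probes and 38.7% of those past the filter), a comparison added after the data were seen.

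The first comparison of the design is between strains. In the 2-choice pair the difference, congenic minus B6, was -2.07 log2 units for Gh (4.19-fold lower in the congenic pool) and -1.94 for Prl (3.83-fold lower). Cga differed by -0.49 and Pitx1 by -0.68 in the same direction, under 2-fold. Lhb (0.17), Tshb (0.23) and Ghrhr (0.05) were close in the 2 pools, and Tbx19 was 1.20 higher in the congenic pool, between values under the filter level. At least 2-fold apart were 3 of 8 members, Gh and Prl lower and Tbx19 higher in the congenic pool, beside 9.7% of all probes (4.84% lower, 4.86% higher) and 5.29% of those past the filter (2.7% lower, 2.6% higher), a contrast that was in view when the members were named. No pool was repeated, so whether a difference exceeds the spread between pools was not measured.

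In the chow pair, as labelled, the congenic pool differed from B6 by 0.47 for Gh, -0.60 for Prl and 0.67 for Cga, between levels near the floor. The difference was -1.81 for Tshb and 1.18 for Pitx1. Lhb differed by 0.20, Ghrhr by -0.25 and Tbx19 by 0.09. These 2 of 8 members at least 2-fold apart stand beside 32.6% of all probes (16.4% higher, 16.2% lower in the congenic pool) and 34.2% of those past the filter (17.2% and 16.9%), so the members' share was not above that of the table. Under the deposited scale and under median scaling Tshb differed by -1.16 in this pair.

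**Figure D2:**
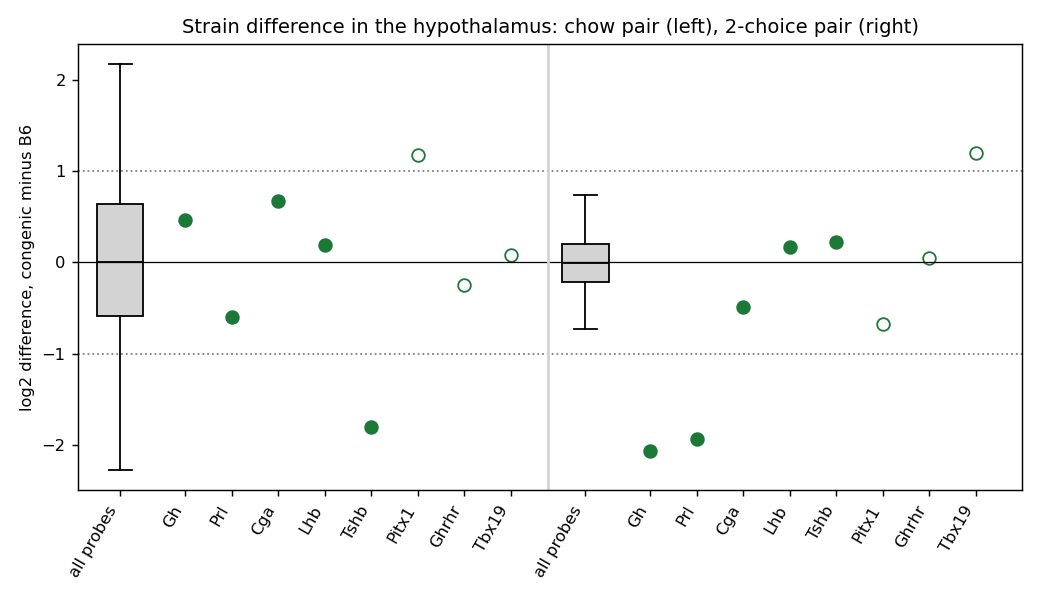
Log2 difference between the congenic and the B6 hypothalamus (congenic minus B6) for the 8 genes in the chow pair (left) and the 2-choice pair (right). Grey boxes give the quartiles of all probes past the filter with whiskers from the 5th to the 95th percentile, filled points are genes past the filter, open points are below it, and dotted lines mark 2-fold. On the right Gh (-2.07) and Prl (-1.94) lie below the whiskers, and Tbx19 (1.20, an open point) lies above them. On the left all 8 genes lie inside wider whiskers.

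The limma fit over all 8 arrays, with strain and diet within each tissue (2 residual degrees of freedom), called 0 of 19807 probes between strains in hypothalamus, with 983 at an unadjusted p under 0.05. It joined the 2-choice pair with the chow pair as labelled, and the strain labels of the chow pair are in doubt. The 0 calls and the strain p-values below therefore do not show that the strains were alike. No p is given for the members. Of 9 hepatocyte markers, the albumin gene Alb (2.07), Apoa1 (2.00), Fabp1 (1.65) and Cyp2e1 (1.15) were at least 2-fold higher in the congenic 2-choice hypothalamus, the pool with less Gh and Prl. The other 5 were not 2-fold apart, with Apoc3 at 0.51, Apoa2 at 0.29, Ahsg at 0.10, Hpd at -0.00 and Fgb at -0.23. By strain, limma called none of the 7 that passed the hypothalamus filter (lowest adjusted p 0.823). Fabp1 and Fgb did not pass it and were not tested. The summed hepatocyte level (log2) was 12.69 in the B6 and 13.65 in the congenic 2-choice hypothalamus, 13.20 and 13.04 in those on chow and 23.85 to 23.95 in the livers. Their part in the strain difference of Gh and Prl was not tested.

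The second comparison is 2-choice against chow, with the strain of each chow pool as labelled. Those labels are in doubt, so the strain to which a diet difference belongs is in doubt too, here and below. In B6 hypothalamus Gh was 6.04 log2 units higher on 2-choice, Cga 4.51, Prl 3.80 and Pitx1 2.95. In the congenic hypothalamus the same genes were higher by 3.50, 3.35, 2.46 and 1.10. All chow levels of Gh, Prl, Cga and Pitx1 other than the congenic Cga level lay under the filter level, so these sizes depend on values near the floor and are not given as folds. The difference was -0.42 for Lhb in B6 and -0.45 in the congenic pools, -0.81 and 1.23 for Tshb, -0.67 and -0.37 for Ghrhr, and -0.25 and 0.86 for Tbx19. At least 2-fold higher on 2-choice in both strains were 4 of 8 members, Gh, Prl, Cga and Pitx1, beside 4.9% of all probes and 5.91% of those past the filter, again a contrast used in naming them. No member was 2-fold lower in both, beside 3.75% and 4.19%. With medians subtracted the congenic Pitx1 difference was 0.61, under 2-fold.

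The scale of the arrays matters for these differences. In the deposited values, where the median probe was 1.36 log2 units higher on 2-choice in B6 and 1.43 in the congenic pools, the differences were 7.31 and 4.90 for Gh, 5.87 and 4.93 for Cga and 5.34 and 3.71 for Prl. Gh, Prl and Cga were higher on 2-choice than the median probe under all 4 scalings run. Lhb was 1.02 and 1.12 higher on 2-choice in the deposited values and so turned direction with the scaling, under the shift of the median probe. Tshb and Tbx19 in B6 turned too, from -0.81 to 0.93 and from -0.25 to 0.10. In the diet fit, limma called 97 of 19807 probes (0.49%), 70 higher (0.353%) and 27 lower (0.136%) on 2-choice, and 15377 higher and 53 lower on the deposited scale. With each array's median subtracted the split was 7167 higher and 466 lower.

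**Figure D3:**
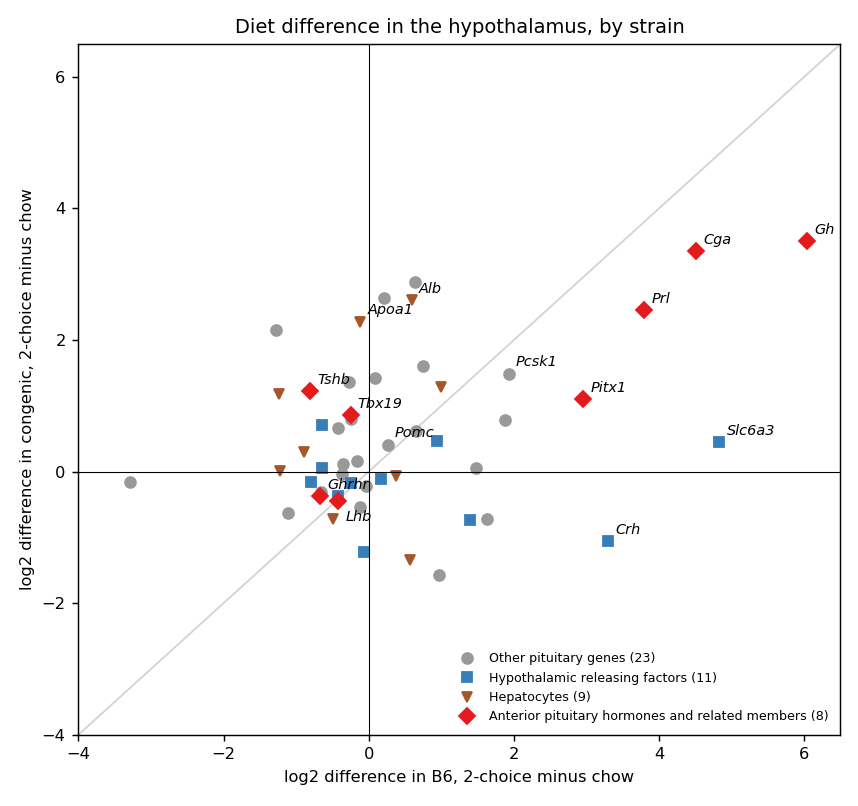
Log2 difference between 2-choice and chow hypothalamus (2-choice minus chow) in B6 (horizontal) and in congenic pools (vertical), 1 point per gene, for the 8 genes and for measured genes of 3 lists; the grey line marks equal differences. Gh (6.04 and 3.50), Cga (4.51 and 3.35) and Prl (3.80 and 2.46) lie to the upper right, apart from the 23 other pituitary genes. The strain of each chow pool is taken as labelled, which is in doubt.

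Genes known from the pituitary that are no members were read from a list, chosen like the other lists with earlier results of these data known. Of 32 listed, 23 were measured and 18 passed the hypothalamus filter. Their median difference on 2-choice was -0.03 in B6 and 0.41 in the congenic pools, beside 0.00 and -0.01 over all probes. The prohormone convertase gene Pcsk1 alone was at least 2-fold higher in both strains, by 1.93 and 1.49 (log2 1.71 ± 0.63 SE, limma adjusted p = 0.178), and limma called none of the 18 by diet or by strain. Pomc, the precursor of corticotropin that arcuate neurons of the hypothalamus also make, was at 12.87 and 12.15 in the B6 and congenic chow pools and at 13.14 and 12.56 on 2-choice. With the chow pair as labelled, its levels were lower in the congenic pool of both pairs, by 0.72 on chow and 0.57 on 2-choice. They differed little by diet (0.34 ± 0.62 SE, limma adjusted p = 0.788). The POU1F1 gene Pou1f1, which drives Gh and Prl in the pituitary, had no probe of 1 symbol and was not analysed here.

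Many of these genes are also neuronal. Against liver, 10 of 15 tested were higher in hypothalamus and 0 lower by limma (tissue fit on 4 matched pairs, 3 residual degrees of freedom; 25% of 19807 probes were called higher). The secretory granule proteins Chgb (log2 9.59 ± 0.30 SE), Chga (8.61 ± 0.23) and Scg2 (7.75 ± 0.33) led them. The others were the growth inhibitor Dlk1 (5.03), the LIM factor Isl1 (4.91), the progenitor factor Sox2 (4.72), Pomc (3.40), the dopamine receptor Drd2 (3.05), Pcsk1 (2.49) and the somatostatin receptor Sstr2 (1.06 ± 0.40, adjusted p = 0.0496). In the 2-choice pair Lhx4, a LIM factor of pituitary development, was the only one of the 23 at least 2-fold apart, 1.70 higher in the congenic pool. In the chow pair, as labelled, 4 were higher and 6 lower in the congenic pool: Lhx3 (2.32), the oestrogen receptor Esr1 (1.86), Sstr2 (1.16) and Sox2 (1.03), and Crhr1 (-2.78), Neurod4 (-2.65), Neurod1 (-2.47), Six6 (-2.37), Trhr (-1.34) and Gata2 (-1.02). None of the 10 passed in the strain fit, which took the chow labels as given.

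Of 12 listed hypothalamic factors that govern these hormones, 11 were measured, and their median difference on 2-choice was -0.07 in B6 and -0.16 in the congenic pools, with 0 of 11 at least 2-fold higher or lower in both strains and 0 called by limma (lowest adjusted p 0.174). Ghrh, which stimulates growth hormone release, was at 10.88 and 12.71 in the B6 and congenic chow pools and at 12.28 and 11.97 on 2-choice. Somatostatin, Sst, which inhibits it, was at 17.63 and 17.53 on chow and at 16.83 and 17.37 on 2-choice. Th, which makes the dopamine that restrains prolactin, was at 15.22 and 16.32 on chow and at 15.15 and 15.10 on 2-choice. The liver levels of Th were 13.97 to 15.35, so the tissues overlapped on this scale. None of these 3 genes was higher in both 2-choice pools than in both chow pools. Trh, the thyrotropin releasing hormone, was within 15.36 to 15.59 in the 4 pools. Slc6a3, the transporter that takes dopamine back up, was at 8.13 and 11.77 in the B6 and congenic chow pools, at 12.96 and 12.22 on 2-choice and at 8.86 or lower in liver. Both 2-choice levels of Slc6a3 thus lay above all 6 other arrays, with diet differences of 4.83 in B6 and 0.45 in the congenic pools, as labelled. Adcyap1, which encodes the peptide PACAP, was at 12.66 and 13.00 on chow and at 13.61 and 13.46 on 2-choice, also higher in both.

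In the 2-choice pair none of the 11 was 2-fold apart between strains, with a range of -0.75 for Slc6a3 to 0.56 for Oxt. In the chow pair, as labelled, Crh (4.28), Slc6a3 (3.64), Ghrh (1.83) and Th (1.11) were higher and Kiss1 (-1.30) lower in the congenic pool. Against liver 10 of 11 were higher in hypothalamus by limma, and Kiss1 was not (-0.35 ± 0.50 SE, adjusted p = 0.602). The called differences ran from 1.27 for Th and 1.39 for Ghrh through Slc6a3 (2.52), Crh (2.80), Adcyap1 (3.51), Tac2 (5.74), Trh (7.06), Avp (7.19) and Sst (8.22) to 9.15 for Oxt. The tissue fit used all 8 arrays normalized together, whereas the Th levels printed above, normalized within each tissue, overlapped with liver.

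Of the receptors for pituitary hormones in target organs, 4 of 6 were measured. Ghr, the growth hormone receptor, was higher in both 2-choice hypothalamus pools than in both chow pools. It was at 8.39 and 8.66 in the B6 and congenic chow hypothalamus and at 10.72 and 10.39 on 2-choice, so the groups did not overlap. The difference was 2.03 ± 0.23 SE log2 units (limma adjusted p = 0.0127). Both chow levels lay under the filter level, so the size depends on values near the floor, and diet cannot be told apart from the scaling set. Ghr was a call of the fit with a variance trend, and without the trend limma called 0 probes by diet, with 3367 at an unadjusted p under 0.05. Hypothalamus minus liver was -7.50 ± 0.37 SE for Ghr (limma adjusted p = 5.22e-08), whose liver levels were 17.37 to 17.48. The summed hepatocyte level given above was lower in the B6 2-choice than in the B6 chow hypothalamus and higher in the congenic one. Of the 9 hepatocyte markers, Alb (0.60 and 2.61) and Cyp2e1 (1.00 and 1.28) were higher on 2-choice in B6 and congenic pools. The rest were not higher in both. Their part in the Ghr difference was not tested. Tshr, the thyrotropin receptor, was 1.10 lower in the congenic 2-choice pool, between levels under the filter level, and Fshr and Mc2r were not 2-fold apart between strains in either pair.

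Tissue at the border of the hypothalamus was read from marker lists. Mtnr1a, the melatonin receptor of the pars tuberalis, was at 8.26, 8.42 and 8.27 in the B6 chow, congenic chow and B6 2-choice pools and at 10.45 in the congenic 2-choice pool. Mtnr1a thus differed by diet by 0.005 in B6 and 2.03 in the congenic pools, and was not higher in both 2-choice pools by 2-fold. Its mean hypothalamus level lay under the filter level. Eya3 (-0.52 and 0.09) and Gpr50 (1.01 and 0.23), of the same list, were not 2-fold higher in both strains either. In the chow pair, as labelled, Dio2 was 1.16 higher in the congenic pool and Rax differed by -2.31, both genes of tanycytes, the glia of the median eminence. Of the 7 measured genes of this list, 4 passed the filter and were tested by diet, and 0 were called (limma, lowest adjusted p 0.232). Mtnr1a, Dio2 and Gpr50 were not tested. Crym (2.39) and Vim (1.32) were higher in hypothalamus than in liver.

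The choroid plexus borders the ventricles, and its transthyretin gene Ttr, which liver also makes, was at 10.03 and 8.81 in the B6 and congenic chow pools and at 12.08 and 11.87 on 2-choice (log2 2.56 ± 0.26 SE, limma adjusted p = 0.00806). Folr1 was 1.35 and 3.24 higher on 2-choice in B6 and congenic pools, while Kl (0.02 and -1.22), Kcne2 (0.07 and -0.24) and Clic6 (-0.40 and 2.44) were not higher in both by 2-fold. The mean hypothalamus level of Folr1 lay under the filter level, with chow values of 7.92 and 6.78 near the floor. Its B6 2-choice level of 9.27 was below the highest liver level of 9.67. The summed level of these 5 choroid plexus genes (log2) was 13.00 and 12.94 in the B6 and congenic 2-choice hypothalamus and 12.28 and 12.11 on chow. Of the hepatocyte markers Cyp2e1 was called by diet (log2 1.14 ± 0.16 SE, limma adjusted p = 0.0317). The summed level of the 2 measured myelin genes was 17.91 and 17.55 on 2-choice and 16.74 and 16.99 on chow, and that of the 2 blood genes 16.18 and 15.74 against 15.17 and 15.62. The summed levels of these 3 lists were higher in both 2-choice pools than in the chow pools, but not every gene was: the blood gene Alas2 was at 10.26 and 11.20 on chow and at 10.64 and 10.47 on 2-choice. Both myelin genes, Mbp and Mog, were higher in both 2-choice pools, and limma called no blood or myelin gene by diet (lowest adjusted p 0.227 and 0.154). The part of these tissues in the levels of Gh, Prl and Cga was not tested.

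The genes whose profile over the 4 hypothalamus arrays lay nearest to that of the set were found by a fixed rule. Levels were centred on each gene's mean, the median profile of the 5 members past the filter was taken (-1.26 and -1.63 in B6 and congenic chow, 2.21 and 0.60 in B6 and congenic 2-choice), and 9886 genes past the filter were ranked by root mean square distance from it. Prl itself was 0.20 from this profile, Cga 0.76, Gh 1.02, Tshb 1.56 and Lhb 1.77. The nearest gene outside the set was Bcl9, a cofactor of beta-catenin, at a distance of 0.23, with 7.99 and 7.81 on chow and 11.19 and 10.18 on 2-choice. It was followed by the ubiquitin ligase gene Arel1 (0.39), the glycine receptor subunit Glra2 (0.45), the phospholipase Plcd4 (0.45), the respiratory factor Nrf1 (0.46), the glycosyltransferase Galnt11 (0.46), the matrix protein Ogn (0.47), the heparan sulphate enzyme Ext2 (0.47), the glutamate carboxypeptidase Folh1 (0.47) and the augmin subunit Haus3 (0.50). Over 4 arrays such closeness is a description, and the shared direction of the 10 genes follows from the rule that picked them. Gh, Prl and Cga passed the filter on the mean level through their 2-choice arrays. So did Bcl9, Arel1, Glra2, Plcd4, Nrf1, Galnt11, Ext2 and Folh1, whose chow levels both lay under the filter level. Ogn was at 9.34 in the congenic and Haus3 at 9.46 in the B6 chow pool, above that level. Glra2 was at 7.41 to 8.22 in the livers and Bcl9 at 7.66 to 8.32, whereas Ext2 (10.51 to 11.09), Haus3 (10.69 to 11.26) and Nrf1 (9.82 to 11.65) were well above the filter level in liver.

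**Figure D4:**
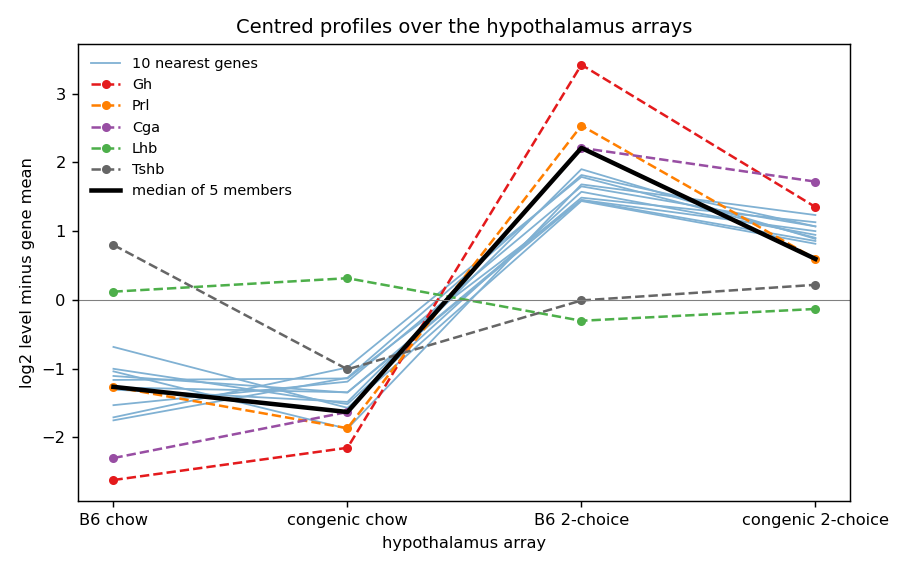
Log2 level minus the gene's mean in each of the 4 hypothalamus arrays, for the median of the 5 members past the filter (black), those members (dashed) and the 10 nearest genes outside the set (blue); lines join arrays for reading only. Gh, Prl and Cga are above 0 in both 2-choice arrays and below 0 in both chow arrays, while Lhb and Tshb are not. The 10 genes have the same signs because they were picked for closeness to the median profile.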

How the data were processed

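The deposited table held linear probe intensity. How the authors corrected background and scaled arrays is not given in the sources used here. Per the labels' protocols, a chemiluminescent kit turned total RNA into cRNA carrying digoxigenin. Once sorted, the intensities of a strain pair differed by at most 0.244%. No detection calls entered the analysis. Groups came from the sample titles. Probes were named from the platform annotation: 14411 had 1 symbol, 247 several and 18354 none. Values were taken to log2 and quantile normalized within each tissue's 4 arrays, or over all 8 for the tissue fit. Probes at or above the 40th percentile of the mean level went into limma 3.58.1 under R 4.3.3, with a trend in eBayes and an adjusted p threshold of 0.05; the script was tested on simulated data. Values after ± are standard errors of the fit (SE), whose error term is made of interactions because no pool was repeated, so a p-value speaks only of the spread among these pools. The number of arrays limits precision. The members, the lists and the rule for named genes (all members, list genes 2-fold apart or past the tissue test, and the 10 nearest profiles) were chosen with earlier results of these data known. Scaling, filter, variance model, fold and left-out arrays were varied.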

Additional observations from a re-analysis of the deposited data

Results flagged for a closer look

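For 5 of the 8 genes the strain difference (congenic minus B6) had opposite signs in the chow and the 2-choice hypothalamus pairs, each 1 array against 1, if the chow labels are taken as given. Of all probes 49.6% had opposite signs, and 50.4% of those past the filter. The 2-choice difference minus the chow difference was -2.54 log2 units for Gh (-2.07 against 0.47), -1.16 for Cga (-0.49 against 0.67), 2.04 for Tshb (0.23 against -1.81), -1.86 for Pitx1 (-0.68 against 1.18) and 0.30 for Ghrhr (0.05 against -0.25). These differences between pairs were not tested, since no pool was repeated, and the chow values of Gh, Pitx1 and Ghrhr lay under the filter level. So did the B6 chow level of Cga (8.61) and the congenic chow level of Tshb (9.06). The strain labels of the chow pair are in doubt, and with that pair turned, a choice made after seeing the data, the signs would be opposite for 3 of 8 genes, Prl, Lhb and Tbx19, and for none of the 5 above. Turning reverses every chow sign, so this count follows from the first and does not show which labels are right. With the pair turned, the 2-choice minus chow difference would be -1.60 for Gh, 0.18 for Cga, -1.58 for Tshb, 0.50 for Pitx1 and -0.20 for Ghrhr.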

How the results depend on the processing

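No paired analysis was possible because each group held 1 pool, so no replicate number could be a block in the strain and diet fits. The tissue fit matched pools of 1 strain and diet. The hypothalamus strain fit called 0 probes, 1 on the deposited scale, 1 with medians subtracted, 21 on the 4 hypothalamus arrays alone and 33 to 1376 when 1 hypothalamus array was left out (33 without the congenic and 34 without the B6 chow array, 1339 without the B6 and 1376 without the congenic 2-choice array). The diet fit called 97 probes, 15430 on the deposited scale, 7633 with medians subtracted, 202 with all 8 arrays normalized together, 43 with the 60th percentile filter, 0 without a variance trend (limma, 3367 at an unadjusted p under 0.05), 753 on the 4 arrays alone and 713 to 1714 with 1 array left out (759 without the B6 and 1714 without the congenic chow array, 713 without the B6 and 1595 without the congenic 2-choice array). Left-out fits have 1 residual degree of freedom. The strain fits took the labels of the chow pair as given. The tissue fit called 9729 probes and 5579 on the deposited scale. Members apart in the chow pair numbered 2 at 2-fold, 4 at 1.5-fold and 0 at 4-fold, and in the 2-choice pair 3 at 2-fold and 1 at 4-fold. Members above all 6 other arrays in both 2-choice pools numbered 4, with 5 on the deposited scale (Tshb added) and 3 with all 8 arrays normalized together (Pitx1 lost). The cause of these changes was not tested.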
